A study of Mus musculus with 28 samples.

Results

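The genes of the cytosolic ribosomal proteins were followed through 28 RNA-seq libraries of mouse dendritic cells. A gene was taken as a member when its name was Rpl or Rps followed by a number and at most 1 further letter (a, x, y or l), and when it reached 1 CPM (reads of the gene scaled to the same library total in every library) in at least 3 libraries. Of 24995 genes, 76 had such a name and 73 were kept, 30 of the small subunit and 43 of the large subunit. Rpl24 and Rpl39l did not reach the level, with highest values of 0.825 and 0.501 CPM, and Rps4l was dropped because it is annotated as a pseudogene, at a mean of 6.92 CPM. Rpl24 encodes a standard large subunit protein, and since the counting and annotation behind the values are not given in the sources used here, its low value does not show that the gene was not expressed. The choice used names and a floor on the level, and no comparison between libraries. Genes such as Rplp0, Rplp1 and Rplp2 of the stalk, Rpsa and Fau also encode ribosomal proteins but carry other names, and they are described separately.

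The cells were dendritic cells cultured from bone marrow of C57BL/6 mice, with GM-CSF at 20 ng/mL and IL-4 at 10 ng/mL in the medium. There were 4 genotypes: wild type (WT), RelBko (knockout of the NF-kB subunit RelB), IFNARko (knockout of the receptor for type I interferons) and IFNARko;RelBko, called the double knockout below. Each genotype gave 1 control library, labelled 1 h, and 6 stimulated libraries. They were taken 1, 3 and 8 h after 0.1 µM CpG oligonucleotide (ODN 1668), which engages TLR9, or after Poly(I:C) HMW, a mimic of double-stranded RNA. Sample titles give Poly(I:C) at 10 ng/mL and the protocol at 10 µg/mL, so this dose is uncertain. How the alleles were made, whether cells of several mice were pooled, and whether libraries came from separate cultures are not given in the sources used here. Every group is 1 library, so the fits took genotypes or conditions as repeats, and their p-values measure only the spread between these samples. All controls are labelled 1 h, so a change at 3 or 8 h cannot be told apart from time in culture.

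The shallowest library held 3269933 reads (CpG 8 h of IFNARko) and the deepest 42227938 (CpG 8 h of WT). All 11 dendritic cell markers were at 1 CPM or more in all 28 libraries. Relb ranged over 69.2 to 155.8 CPM in RelBko and 93.9 to 187.0 CPM in WT. The double knockout had 96.4 to 209.2 CPM of Relb, so its Relb range alone does not set it apart from WT. Relb in IFNARko was higher, at 141.5 to 273.1 CPM. Ifnar1 ranged over 52.0 to 92.9 CPM in IFNARko, against 108.7 to 147.5 CPM in WT. For the double knockout its range was 58.1 to 104.3 CPM. Transcripts of both genes were therefore still counted in the knockouts. Xist, expressed from the inactive X of females, reached 445.0 CPM or more in every library of WT and of the double knockout, and at most 0.879 CPM in RelBko and IFNARko. The sum of 4 Y-linked genes went the other way, at 221.4 CPM or more in each RelBko and IFNARko library and at most 0.472 CPM elsewhere. Sex-linked transcripts therefore differ in every genotype comparison except RelBko with IFNARko and the double knockout with WT. Stromal markers (6 genes, with Col1a1 and Col3a1 among them) summed to 28.7 to 50.6 CPM in the double knockout and to at most 3.80 CPM elsewhere. T and NK cell markers (10 genes) summed to 358.2 to 627.2 CPM in IFNARko and to at most 143.7 CPM elsewhere, and neutrophil markers (9 genes) to 187.0 to 304.3 CPM in RelBko and at most 185.1 CPM elsewhere. Mast cell and basophil markers (7 genes) summed to 47.3 CPM or more in every IFNAR-null library and to at most 28.9 CPM elsewhere, while 5 of 6 erythroid markers stayed below 1 CPM.

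A ribosome holds 1 copy of nearly every ribosomal protein, and cells keep the supply of the proteins close to balanced. Their messenger RNAs are among the most abundant in mammalian cells, and most begin with a C followed by a run of pyrimidines, the 5′ terminal oligopyrimidine (TOP) motif, through which mTORC1 and the RNA-binding protein Larp1 control their translation. Transcription of ribosomal protein genes is known to depend on Myc among other factors, and dendritic cells change their protein synthesis when they sense microbial ligands.

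The start regions show what the members share that their names did not use. Promoter entries were found for 54 of the 73 members in RefSeq (GRCm38.p6), each covering 250 bases before and 50 after a start, and genes with several starts were counted once per gene. Sequences of 7 members are printed here from 40 bases before to 20 bases from the start, because they cover members that the results single out: the paralogs Rps27l and Rpl3l beside Rps27, Rps10 and Rpl27a with a course of their own after CpG, Rpl14 among the largest genotype differences, and Rps6. Capitals mark the longest run of C and T only that reaches within 20 bases of the start, or the first of equal runs. In Rps27l an equal run lies nearer the start and is not marked.
Rps6 (chr4:86857348-86857407, minus strand): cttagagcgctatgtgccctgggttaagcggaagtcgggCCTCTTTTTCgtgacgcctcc
Rps10 (chr17:27635225-27635284, minus strand): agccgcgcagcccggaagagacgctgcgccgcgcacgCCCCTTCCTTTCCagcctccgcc
Rpl27a (chr7:109519155-109519214, plus strand): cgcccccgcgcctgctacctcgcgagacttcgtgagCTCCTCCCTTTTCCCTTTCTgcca
Rps27 (chr3:90213629-90213688, minus strand): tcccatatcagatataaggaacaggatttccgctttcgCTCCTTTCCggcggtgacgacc
Rpl14 (chr9:120571477-120571536, plus strand): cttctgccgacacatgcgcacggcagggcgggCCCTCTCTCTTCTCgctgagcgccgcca
Rps27l (chr9:66946046-66946105, plus strand): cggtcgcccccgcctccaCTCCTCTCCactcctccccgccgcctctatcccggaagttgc
Rpl3l (chr17:24727786-24727845, plus strand): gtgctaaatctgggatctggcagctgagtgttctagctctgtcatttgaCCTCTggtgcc

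The run was 20 bases long in Rpl27a, 14 in Rpl14, 13 in Rps10, 10 in Rps6, 9 in Rps27 and Rps27l and 5 in Rpl3l. In Rps6, Rps10, Rpl27a, Rps27 and Rpl14 it spanned the annotated start, whereas in Rps27l it ended before it. A run of at least 8 such bases lay within 20 bases of a start in 30 of 54 members, 55.6%, beside 23.7% of 27025 genes with an entry. The first transcribed base was a C at 19 of the 66 annotated starts of members. Over the 300-base window on both strands, the letters CCGGAAG (bound by the ETS factor GABP) were found in 40.7% of members and 9.93% of all genes, AAGATGG (YY1) in 16.7% and 7.28%, the E-box CACGTG (Myc and related factors) in 11.1% and 8.09%, and TATAAA in 9.26% and 15.7%. The AAGATGG letters can include a start codon, and a match is a string of letters and not a bound site.

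The 73 members lie on 19 chromosomes, with 13 on chromosome 7 and 4 on X (Rpl10, Rpl36a, Rpl39 and Rps4x). Levels per length were compared as mean CPM per kilobase of the shortest principal transcript in GENCODE M21. The median member stood at 480 CPM per kb, with quartiles of 329 and 632. The highest were Rps14 (mean 1114 CPM per kb, range 792 to 1445 over the 28 libraries), Rpl8 (1110, range 737 to 1392), Rps9 (1099, range 829 to 1414), Rps15 (1078, range 682 to 1401) and Rpl4 (995, range 668 to 1302). Their ranges over libraries overlapped widely, but members moved together over libraries, and the order of these 5 within single libraries was not compared. Rpl3l, a paralog of Rpl3 known as a protein of heart and skeletal muscle, was far below the rest at a mean of 1.90 CPM per kb. Rps20 came next at 112 CPM per kb, a value that rests on a principal transcript of 3706 bases, against a median of 729 bases for the members.

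The members rose and fell together. The median Pearson correlation of log2 levels over 2628 pairs of members and 28 libraries was 0.858, and 67 of 73 members had a correlation above 0.8 with the sum of the others, given as a description because libraries share genotype, stimulus and scaling. The lowest correlations with the rest were those of Rps27l (0.18), Rpl3l (0.59), Rps10 (0.65), Rpl27a (0.73) and Rpl13 (0.77). The level was lowest in WT cells at CpG 8 h for 67 of 73 members. It was highest in a double knockout library for 71, in its control for 27. How many of all genes share these extremes was not counted. Median-ratio scaling, described below, gave its smallest factor over the library total (0.806) to the WT CpG 8 h library. Its largest (1.15) went to a double knockout library, taken 3 h after Poly(I:C). The part of scaling in these counts was not tested. The highest library stood 1.90 times above the lowest in the median member. Among genes outside the family, the 10 with the pattern most like the members' mean over 28 libraries were Rplp0 (r = 0.975), Eef1a1, Rpsa, Rplp1, Alox5, Use1, Rplp2, Rab44, Eif3g and Eef1b2 (r = 0.954), of 9916 genes with a mean of at least 5 CPM. Of these, 4 encode ribosomal proteins and 3 encode translation factors.

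Together the 73 genes took 1.92% to 3.50% of the reads of a library. In WT the share was 2.84% in the control, 2.94%, 2.52% and 1.92% at 1, 3 and 8 h after CpG, and 2.81%, 2.67% and 2.21% after Poly(I:C). In RelBko it was 3.04% in the control, 2.96%, 2.66% and 2.37% after CpG and 2.82%, 2.70% and 2.41% after Poly(I:C). Both genotypes had their lowest share at 8 h of either stimulus. In IFNARko it was 2.77% in the control, 2.73%, 2.61% and 2.55% after CpG and 2.73%, 2.64% and 2.53% after Poly(I:C). In the double knockout it was 3.50% in the control, 3.48%, 3.20% and 3.16% after CpG and 3.33%, 3.24% and 3.27% after Poly(I:C). Every double knockout library lay above all 21 libraries of the other genotypes. Exact 95% binomial intervals were narrow (1.919% to 1.927% in the WT CpG 8 h library, 2.53% to 2.56% in the shallowest), but they cover counting error only, reads are not independent molecules, and no group has a replicate to give a spread. A lower share in bulk RNA cannot tell fewer transcripts of these genes from more RNA of other genes.

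**Figure D1:**
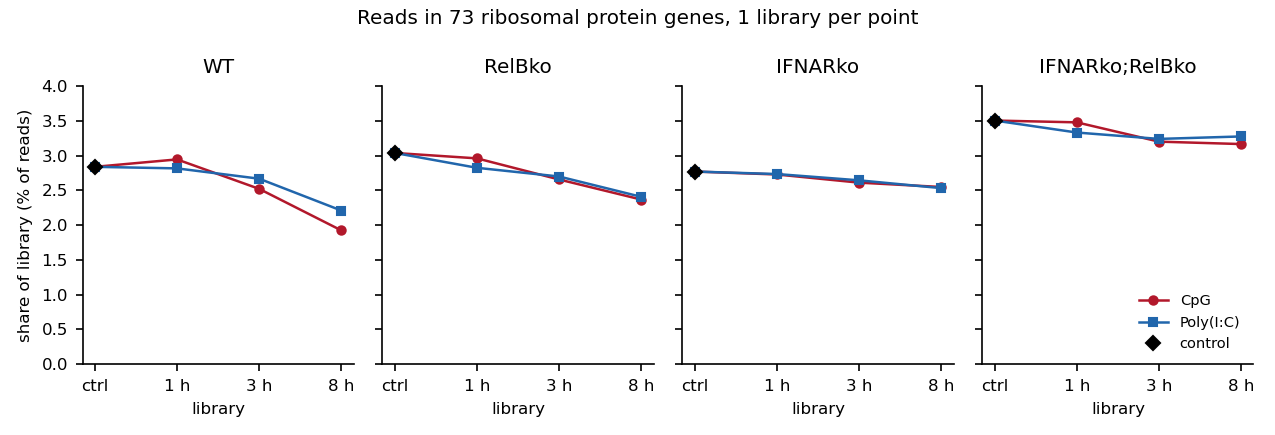
Share of each library's reads (%, vertical axis) that fell in the 73 ribosomal protein genes, by genotype (panels) and library (horizontal axis: control, then 1, 3 and 8 h after CpG in red circles or Poly(I:C) in blue squares); each point is 1 library and lines join libraries of 1 stimulus. WT falls from 2.84% to 1.92% at CpG 8 h, and the double knockout stays at or above 3.16%.

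As a ratio to the control of the same genotype, the share at CpG 8 h was 0.678 in WT, 0.779 in RelBko, 0.920 in IFNARko and 0.903 in the double knockout. The ratios after 8 h of Poly(I:C) were 0.778, 0.792, 0.914 and 0.935 in the same order. The genotypes with IFNAR intact thus had the lower ratios after both stimuli. Reads in small subunit genes were 0.762 to 0.818 of those in large subunit genes over all libraries, a narrow range. At CpG 8 h the proportion was above control in all 4 genotypes. It was 0.791 in WT, 0.818 in RelBko, 0.804 in IFNARko and 0.815 in the double knockout, against 0.777, 0.777, 0.776 and 0.789. At Poly(I:C) 8 h it was above control in all genotypes but the double knockout (0.779).

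The CpG response was read from 4 control and 12 CpG libraries with genotype as a block, on the log2(CPM + 1) scale, with limma p-values adjusted over all genes tested (Benjamini-Hochberg) and a call at an adjusted p under 0.05. All differences and fold changes below are on this scale, with the standard error of the fit. At 1 h no member was called higher or lower, beside 0.389% and 0.119% of all genes; 6 had an unadjusted p under 0.05, all lower, and voom (limma's model for recovered reads) also called 0. At 3 h 18 of 73 members fell and 0 rose, 24.7% beside 31.9% of all genes, with a median change of -0.14 in the members and -0.15 in all genes. At 8 h 61 of 73 fell and 1 rose, and the background was 38.8% of genes down and 15.3% up. The median change at 8 h was -0.30 in the members and -0.17 in all genes.

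The direction of these counts depended in part on scaling. Median-ratio scaling, which sets the typical gene to no change, moved the median of all genes at 3 h from -0.15 to -0.02 and at 8 h from -0.17 to -0.01. It left 4 members down and 5 up at 3 h (of 12608 genes, 2314 down and 2284 up). At 8 h 23 members were down and 1 up (of 12608 genes, 3121 down and 2961 up). Relative to the typical gene, the family as a whole therefore did not fall at 3 h, and its median at 8 h was -0.13. Leaving out RelBko gave 5 falls at 3 h and 41 at 8 h (of 12481 genes, 2680 and 3646). Leaving out the libraries of fewer than 5000000 reads gave 32 at 3 h and 71 at 8 h (of 12511 genes, 4684 and 5040). The count of 71 rests on WT and RelBko alone at 8 h.

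Among members with well-known roles, Rps6, the S6 kinase substrate, went at 8 h from a control level of 288.6 to 190.9 CPM in WT, from 311.7 to 222.3 in RelBko, from 271.4 to 243.4 in IFNARko and from 350.7 to 311.9 in the double knockout. It was lower in 4 of 4 genotypes, and the fitted change was -0.35 ± 0.07 (adjusted p 0.00075). Rpl5 and Rpl11, which form the 5S particle that can bind Mdm2, fell by 0.28 ± 0.06 and 0.40 ± 0.07, Rps3, a protein of the mRNA entry site, by 0.32 ± 0.07, Rpl13a, known in human cells as part of an interferon-gamma-activated translational silencer, by 0.38 ± 0.08, and Rps27a, made as a fusion with ubiquitin, by 0.27 ± 0.07. Rpl10 (-0.22), the X-linked Rps4x (-0.25) and Rpl22 (-0.20) also fell. Rps19, mutated in Diamond-Blackfan anaemia, and Rpl38, which in mouse embryos controls translation of Hox messages, were not called, at -0.19 ± 0.08 (adjusted p 0.074) and -0.18 ± 0.09 (adjusted p 0.11). Median-ratio scaling ended the calls of Rpl5, Rpl10, Rpl22, Rps4x and Rps27a at 8 h, and leaving out RelBko those of Rpl22, Rps4x and Rps27a.

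The largest falls at 8 h among members with a mean of at least 5 CPM were those of Rpl10a, Rps16, Rpl3 and Rpl29. Rpl3, which lies near the peptidyl transferase centre, went from 545.4 to 298.3 CPM in WT, 595.7 to 321.6 in RelBko, 587.8 to 441.9 in IFNARko and 642.2 to 506.7 in the double knockout, a change of -0.63 ± 0.10 (adjusted p 5.4e-05). Rps16, a small subunit protein, went from 210.3 to 91.6 CPM in WT, 223.1 to 143.7 in RelBko, 199.5 to 153.2 in IFNARko and 243.3 to 175.6 in the double knockout, a change of -0.67 ± 0.11 (adjusted p 0.00016). Rpl10a, of the L1 stalk, went from 158.0 to 60.1 CPM in WT, 172.5 to 100.1 in RelBko, 144.3 to 118.4 in IFNARko and 183.9 to 145.0 in the double knockout, a change of -0.70 ± 0.16 (adjusted p 0.0035). In these 3 genes all 4 genotypes were lower, with the widest drop in WT for Rps16 and Rpl10a and in RelBko for Rpl3. Rpl29 fell by 0.48 ± 0.15, and its call was lost without RelBko (adjusted p 0.056) and with median-ratio scaling (0.059).

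**Figure D2:**
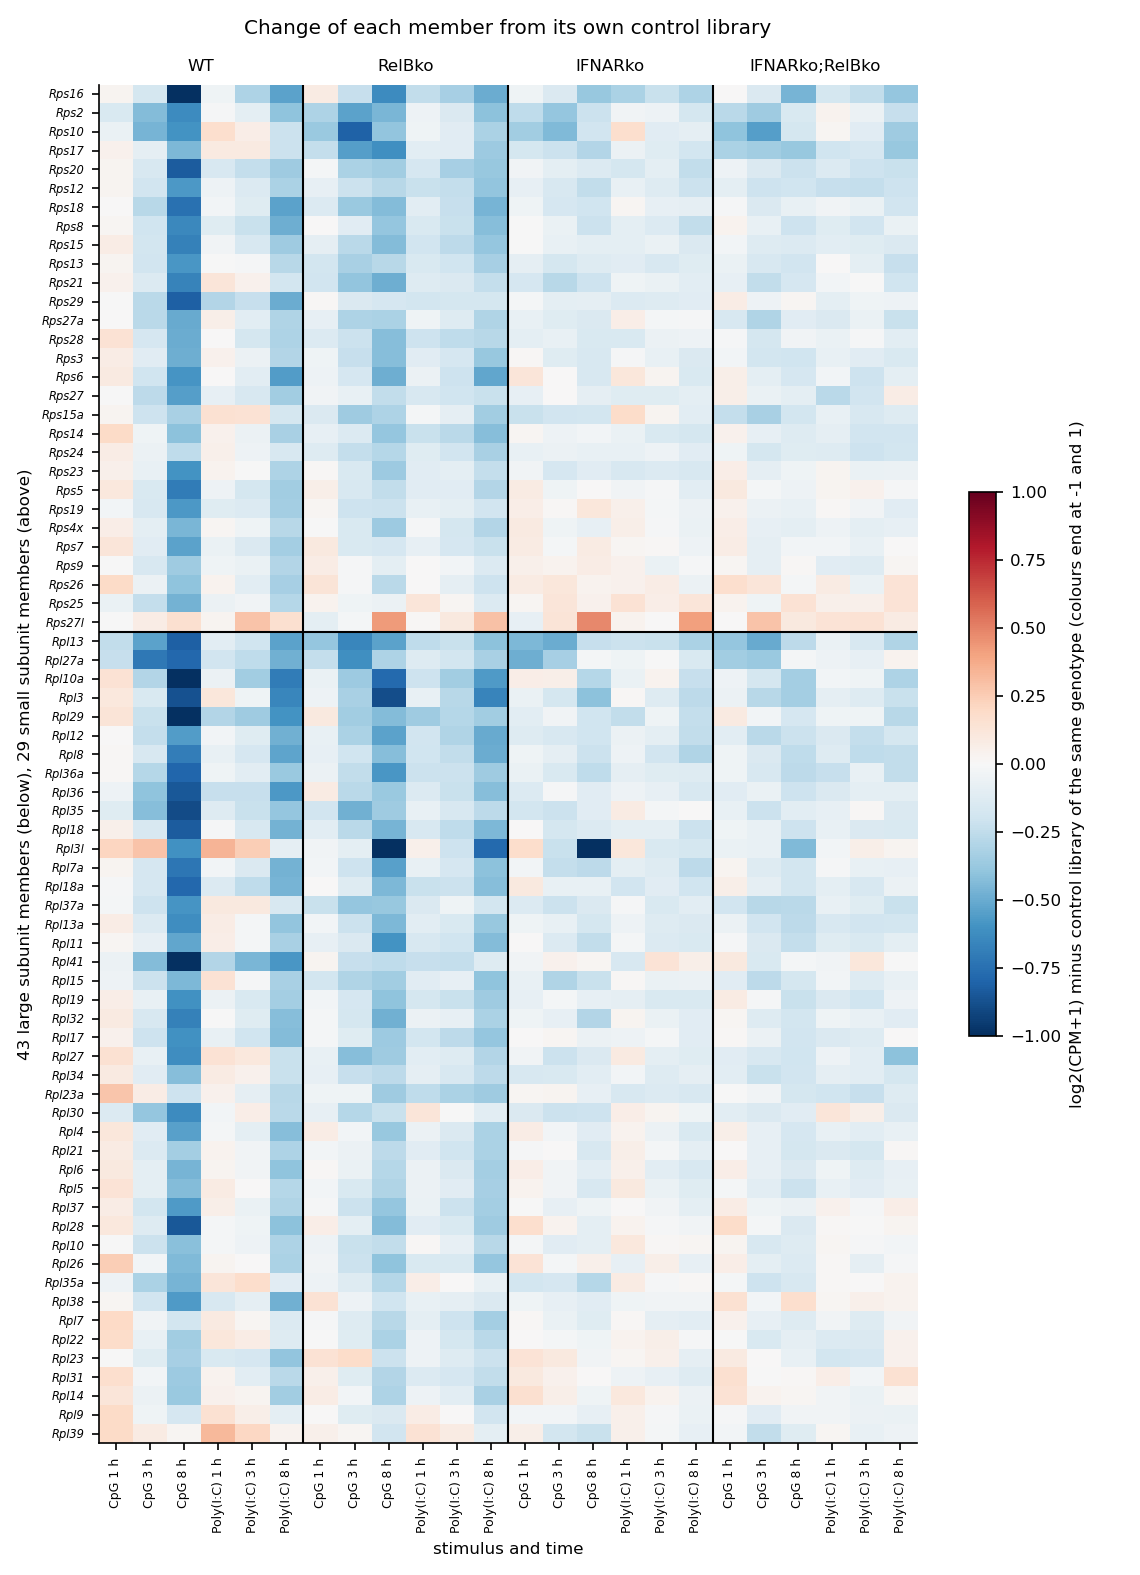
Change of 72 of the 73 members (rows, small subunit above and large subunit below the black line) from the control library of the same genotype, as a difference of log2(CPM + 1), in 24 stimulated libraries (columns, by genotype, stimulus and time). Blue is lower and red is higher than control, with colours ending at -1 and 1; WT at CpG 8 h is the bluest column, and Rps27l is the row that is mostly red.

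The size of the late fall differed between genotypes as a description. At CpG 8 h 71 of 73 members lay below control in WT (median -0.57), 72 in RelBko (-0.36), 63 in IFNARko (-0.12) and 66 in the double knockout (-0.17), while 64.6%, 65.3%, 63.8% and 59.9% of all genes did so. At Poly(I:C) 8 h the counts were 71 (median -0.33), 72 (-0.33), 67 (-0.11) and 54 (-0.08), while 55.8%, 54.7%, 54.9% and 46.9% of all genes lay below control. Macrophage and monocyte markers (13 genes) summed to 2742, 1480, 1120 and 1313 CPM in the controls of WT, RelBko, IFNARko and the double knockout, to 2645, 1797, 1516 and 2493 CPM at CpG 8 h and to 3195, 2782, 2517 and 3186 CPM at Poly(I:C) 8 h, and their part in these changes was not tested. A fall of more than 0.5 was seen at CpG 8 h in 46 members in WT (all genes: 29.7%), 10 in RelBko (all genes: 26.2%), 1 in IFNARko (all genes: 20.6%) and 0 in the double knockout (all genes: 15.1%). As a share of the 73 members, only that of WT lay above the share of all genes. In 59 of 73 members the CpG 8 h level was below control in 4 of 4 genotypes (all genes: 40%), and at Poly(I:C) 8 h this held in 50 (all genes: 27.3%). The counts at 3 h were 54 after CpG (all genes: 42.3%) and 43 after Poly(I:C) (all genes: 20.1%). In 46 members all 8 pairs of an 8 h library with its control went down (all genes: 21.8%).

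A fit of all 28 libraries, which compared the change from control to 3 and 8 h between IFNAR states and between RelB states, called none of these differences in single members. For IFNAR and CpG 0 of 73 were called (all genes: 0.879% up and 1.02% down), although the difference was above 0 in 72 of 73, with a median of 0.20 beside 0.05 for all genes. Of these, 19 had an unadjusted p under 0.05. Rps6 differed by 0.26 ± 0.12 (adjusted p 0.32) and Rps19 by 0.29 ± 0.11 (adjusted p 0.21). For IFNAR and Poly(I:C) the median was 0.13 beside 0.03, with 0 called (all genes: 0.339% up and 0.825% down) and 3 at an unadjusted p under 0.05. For RelB the medians were 0.03 after CpG and -0.02 after Poly(I:C), with 0 called and 0 at an unadjusted p under 0.05 in either (all genes: 0.0% after CpG, 0.0% up and 0.00771% down after Poly(I:C)). Voom called 0 members in each. Without the 2 shallowest libraries, both IFNAR-null at CpG 8 h, the IFNAR median after CpG was 0.07.

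The Poly(I:C) response was fitted in the same way and shares its 4 control libraries with the CpG response. At 1 h no member was called (all genes: 0.323% up and 0.00788% down), with 1 higher and 10 lower at an unadjusted p under 0.05 and 0 by voom. At 3 h 11 of 73 members fell and 0 rose (all genes: 9.71% down, 13.9% up), led by Rps16 (-0.28 ± 0.06, adjusted p 0.004), Rps20 (-0.22 ± 0.05), Rpl8 (-0.22 ± 0.06) and Rpl13 (-0.20 ± 0.05). Without RelBko 0 members were called at 3 h (of 12586 genes, 386 down and 798 up). With median-ratio scaling 22 fell (all genes: 1629 of 12692). At 8 h 58 fell and 1 rose (all genes: 24.1% down, 18.9% up), with a median of -0.21 beside -0.03 for all genes. Median-ratio scaling left 49 falls at 8 h (all genes: 2704 of 12692), and leaving out RelBko left 26 (all genes: 1866 of 12586).

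The largest falls at Poly(I:C) 8 h were those of Rpl3 (-0.45 ± 0.08, adjusted p 0.00041), Rpl10a (-0.45 ± 0.07, adjusted p 0.00016), Rps16 (-0.43 ± 0.06, adjusted p 3.9e-05) and Rpl8 (-0.39 ± 0.06, adjusted p 4.4e-05). Rpl3 then stood at 345.9 CPM in WT, 377.6 in RelBko, 491.5 in IFNARko and 549.0 in IFNARko;RelBko, each below its control. Rps6 fell by 0.33 ± 0.08, to 195.9 CPM in WT and 217.5 in RelBko, and to 244.7 and 327.7 CPM with IFNAR deleted. Its adjusted p was 0.0022. Rps3 (-0.24), Rpl5 (-0.20), Rpl11 (-0.25), Rpl13a (-0.28), Rps19 (-0.18), Rps27a (-0.21), Rps4x (-0.18) and Rpl10 (-0.15) also fell. Without RelBko the calls of Rpl5, Rpl10, Rpl11, Rps6 (adjusted p 0.0502), Rps19, Rps27a and Rps4x were lost, and with median-ratio scaling that of Rpl10. Rpl22 (-0.09 ± 0.07), Rpl38 (-0.16 ± 0.07) and Rpl3l (-0.25 ± 0.15) were not called.

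A small set of members took a course of its own after CpG. Rps10 and Rpl13, subunit proteins of the small and the large subunit, and Rpl27a had the lowest correlations with the rest of the family apart from the paralogs, and with Rps2 they had the 4 largest falls at CpG 3 h. Rps10 (chromosome 17, 27630418 to 27636669) went from a control level of 259.9 to 247.6, 188.5 and 171.4 CPM at 1, 3 and 8 h in WT and from 293.7 to 226.7, 167.2 and 223.4 CPM in RelBko. It went from 261.0 to 205.4, 192.2 and 227.8 CPM in IFNARko and from 336.7 to 254.6, 229.2 and 297.5 CPM in the double knockout. In 3 of 4 genotypes the 8 h level was thus above the 3 h level, in WT it was not, and the difference between 8 and 3 h was not tested. After Poly(I:C) Rps10 at 3 h was 271.8, 272.0, 240.6 and 311.6 CPM in WT, RelBko, IFNARko and the double knockout, above the CpG value in each.

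The changes at CpG 3 h were -0.57 ± 0.10 for Rps10 (adjusted p 0.00017), -0.55 ± 0.09 for Rpl13 (adjusted p 0.00022), -0.51 ± 0.13 for Rpl27a (adjusted p 0.0052) and -0.43 ± 0.08 for Rps2 (adjusted p 0.00035). As a share of the family's reads, Rps10 went from 0.916% to 0.748% in WT, 0.967% to 0.630% in RelBko, 0.942% to 0.737% in IFNARko and 0.961% to 0.716% in the double knockout. The fall of this gene therefore also stood within the family. At 8 h Rpl27a was 310.5 CPM in WT against a control of 535.5, but 462.7 CPM in IFNARko against 467.9 and 573.8 CPM in the double knockout against 581.3, and it was not called.

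Stimuli were compared without the shared controls in the 24 stimulated libraries. At 3 h 14 members were lower after CpG than after Poly(I:C) and 1 was higher (all genes: 31.7% lower, 8.02% higher), with a median of -0.03 beside -0.17 for all genes. Rps10 (-0.50 ± 0.09, adjusted p 7.8e-05), Rpl27a (-0.38 ± 0.10), Rpl13 (-0.34 ± 0.08) and Rps2 (-0.34 ± 0.07, adjusted p 0.00039) had the largest differences, and Rpl23a, a protein at the tunnel exit, was higher after CpG (0.20 ± 0.06, adjusted p 0.013). Median-ratio scaling turned the split to 27 higher and 2 lower (of 12897 genes, 2056 higher and 1789 lower). The median was then 0.14 in the members and -0.02 in all genes, so the direction of the family depends on the scaling. Under it Rps10 (-0.32) and Rps2 (-0.16) were still called lower, and the calls of Rpl13 (-0.17, adjusted p 0.076) and Rpl27a (-0.20, adjusted p 0.079) were lost. Rpl10 (-0.15) and Rps27a (-0.17) were called lower but stood at 0.0275 and 0.0024 under that scaling. The call of Rpl23a was lost without RelBko (adjusted p 0.12).
At 8 h 2 members were lower after CpG and 0 higher (all genes: 23.4% lower, 7.48% higher), Rpl3l (-0.76 ± 0.18, adjusted p 0.0026) and Rpl35a (-0.26 ± 0.07, adjusted p 0.0038). Voom called 9 lower and 0 higher (of 12897 genes, 3965 and 1116), and 7 of 73 members were above 0 in the reported fit. Without the libraries under 5000000 reads 32 were lower (all genes: 3142 of 12824). With median-ratio scaling 1 (Rpl3l) was lower and 4 were higher (of 12897 genes, 1543 lower and 1693 higher).

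**Figure D3:**
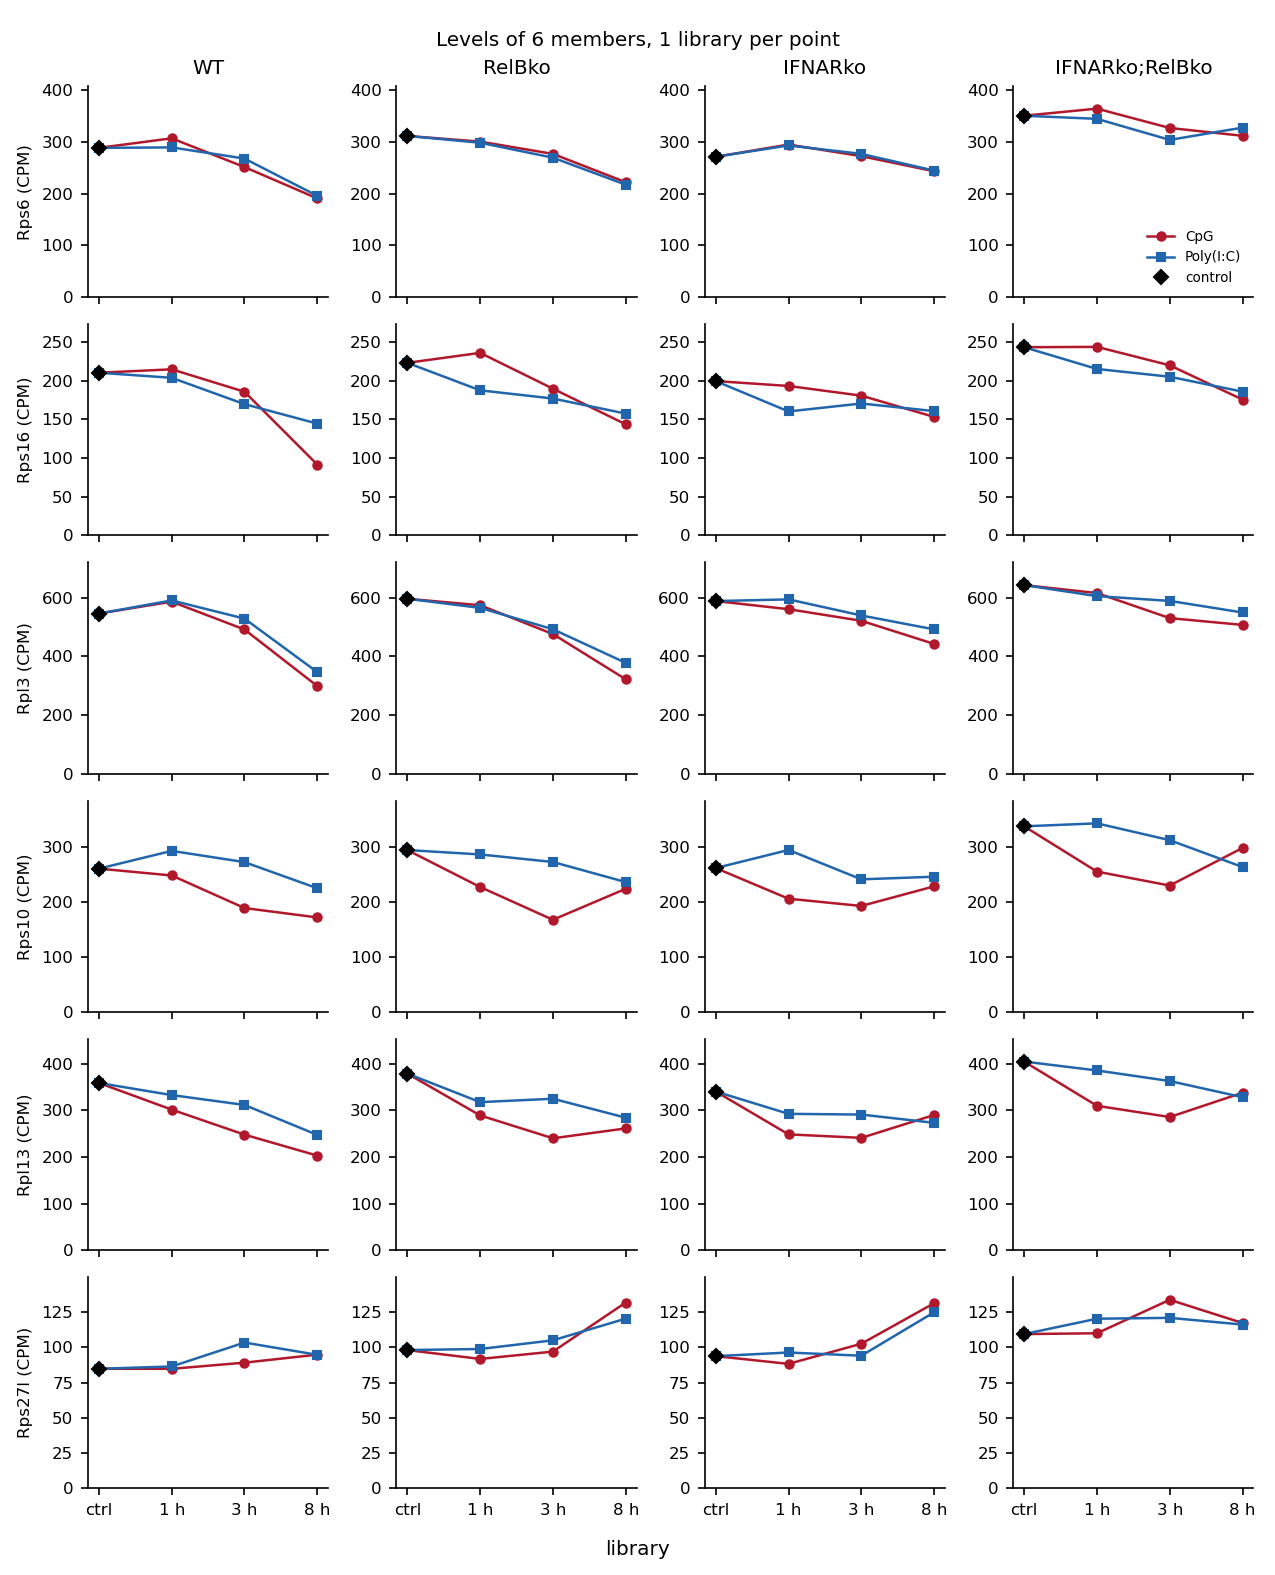
Level (CPM, vertical axis from 0) of Rps6, Rps16, Rpl3, Rps10, Rpl13 and Rps27l (rows) in each genotype (columns) by library (horizontal axis: control, then 1, 3 and 8 h after CpG in red circles or Poly(I:C) in blue squares); each point is 1 library. Rps10 in RelBko dips to 167.2 CPM at CpG 3 h and returns to 223.4 CPM at 8 h, whereas Rpl3 and Rps16 are lowest at 8 h of CpG in all 4 genotypes.

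The paralogs Rps27l and Rpl3l had the lowest correlations with the rest of the family. Only Rps27l rose at 8 h, whereas Rpl3l fell at CpG 8 h, as most members did. Rps27l (chromosome 9, 66946086 to 66949516), a paralog of Rps27 that is known as a p53 target, was the only member called higher in either response. At CpG 8 h it stood at 94.7 CPM in WT against a control of 84.7, at 131.7 in RelBko against 98.0, at 131.2 in IFNARko against 93.7 and at 117.2 in the double knockout against 109.3. Poly(I:C) gave 94.6, 120.3, 124.8 and 116.1 CPM at 8 h in the same order. All 8 libraries were above their control. The change was 0.29 ± 0.09 at CpG 8 h (adjusted p 0.0088) and 0.24 ± 0.07 at Poly(I:C) 8 h (adjusted p 0.014). Both calls were lost without IFNARko (adjusted p 0.079 and 0.078) and without RelBko (0.066 and 0.10), with the estimates still above 0.

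Rps27 itself was lower than control at CpG 8 h in all 4 genotypes. The CPM of Rps27l was therefore 49.3% of that of Rps27 at CpG 8 h in WT against 30.1% in the control, 54.2% against 34.0% in RelBko, 56.2% against 37.6% in IFNARko and 37.1% against 32.4% in the double knockout. These are ratios of reads and not of transcripts per length. Beside this change, the p53 targets Cdkn1a, a cell cycle inhibitor, and Mdm2, the ubiquitin ligase that restrains p53, rose at CpG 8 h by 0.94 ± 0.10 and 0.76 ± 0.10 and at Poly(I:C) 8 h by 0.64 ± 0.12 and 0.60 ± 0.07. Their list (6 genes of the 5S particle and p53 axis) had 2 up and 2 down at CpG 8 h (all genes: 15.3% up and 38.8% down). At Poly(I:C) 8 h it had 3 up and 2 down (all genes: 18.9% up and 24.1% down).

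Rpl3l (chromosome 17, 24727820 to 24736143) was low throughout and rested on few reads. At CpG 8 h it stood at 1.07 CPM in WT (45 reads), 0.599 in RelBko (4 reads), 0.306 in IFNARko (1 read) and 2.10 in the double knockout (8 reads), against controls of 2.15, 4.08, 2.32 and 3.20 CPM. The ratio to control was 0.496 in WT (95% interval 0.271 to 0.957, exact, counting error only), 0.147 in RelBko (0.0387 to 0.397), 0.132 in IFNARko (0.00325 to 0.784) and 0.655 in the double knockout (0.261 to 1.45). The intervals of WT, RelBko and IFNARko lay below 1, and the fitted change was -1.02 ± 0.20 (adjusted p 0.00044), or -1.18 without the libraries under 5000000 reads. As a pseudocount of 1 is large beside these levels, this value understates the change.

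Genotypes were compared over the 24 stimulated libraries, with the 6 conditions as repeats. The double knockout stood above IFNARko in 71 of 73 members and above RelBko in 69, with no member lower (all genes: 33.3% and 42.6% higher, 16.5% and 13.8% lower). The median difference was 0.31 and 0.30 in the members, against 0.11 and 0.16 in all genes. The exceptions against IFNARko were Rpl10a and Rpl3, and against RelBko they were Rpl3l, Rps16, Rps27l and Rps28, where the estimates were above 0 but not called. Median-ratio scaling left 58 and 32 members higher, with medians of 0.21 and 0.12, and none lower. Of 12897 genes it left 2580 and 2936 higher and 2878 and 3136 lower. Within CpG libraries alone 44 and 49 members were higher (of 12392 genes, 1926 and 3142). Within Poly(I:C) libraries alone 66 and 69 were higher (of 12552 genes, 2530 and 3746). Leaving out any 1 condition kept the counts between 69 and 72 and between 67 and 71. Of 12783 to 12822 genes, 3631 to 4009 and 4907 to 5286 were then higher.

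Against IFNARko the largest differences at a mean of at least 5 CPM were those of Rps27 (0.44 ± 0.06, adjusted p 5.4e-06), Rpl13a (0.43 ± 0.06, adjusted p 4.1e-06), Rps12 (0.43 ± 0.06, adjusted p 8.1e-07) and Rpl37 (0.42 ± 0.06, adjusted p 3.7e-06). Rps12, a protein of the beak of the small subunit, stood at 581.8 to 684.7 CPM over the 7 double knockout libraries with a control of 684.7, while WT ran from 328.0 to 498.5 CPM, RelBko from 403.8 to 532.2 CPM and IFNARko from 414.1 to 492.1 CPM. The double knockout did not overlap any other genotype in this gene. Against RelBko the largest were Rpl14 (0.49 ± 0.06, adjusted p 1e-07), Rpl36a (0.43 ± 0.06), Rpl21 (0.42 ± 0.05) and Rps12 (0.40 ± 0.06). Rpl14 ranged over 542.6 to 627.0 CPM in the double knockout and over 325.5 to 476.5 CPM in the other 21 libraries, again without overlap. The same members with well-known roles, Rps3, Rps6, Rps19, Rps27a, Rps4x, Rpl5, Rpl11, Rpl10, Rpl13a, Rpl22 and Rpl38, were higher than in IFNARko by 0.20 to 0.43 and higher than in RelBko by 0.18 to 0.37. Median-ratio scaling ended the calls of Rpl10 and Rpl38 against IFNARko and those of Rpl10, Rpl11, Rpl13a, Rpl38, Rps3, Rps19 and Rps27a against RelBko, where Rpl10 stood at 0.0016.

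**Figure D4:**
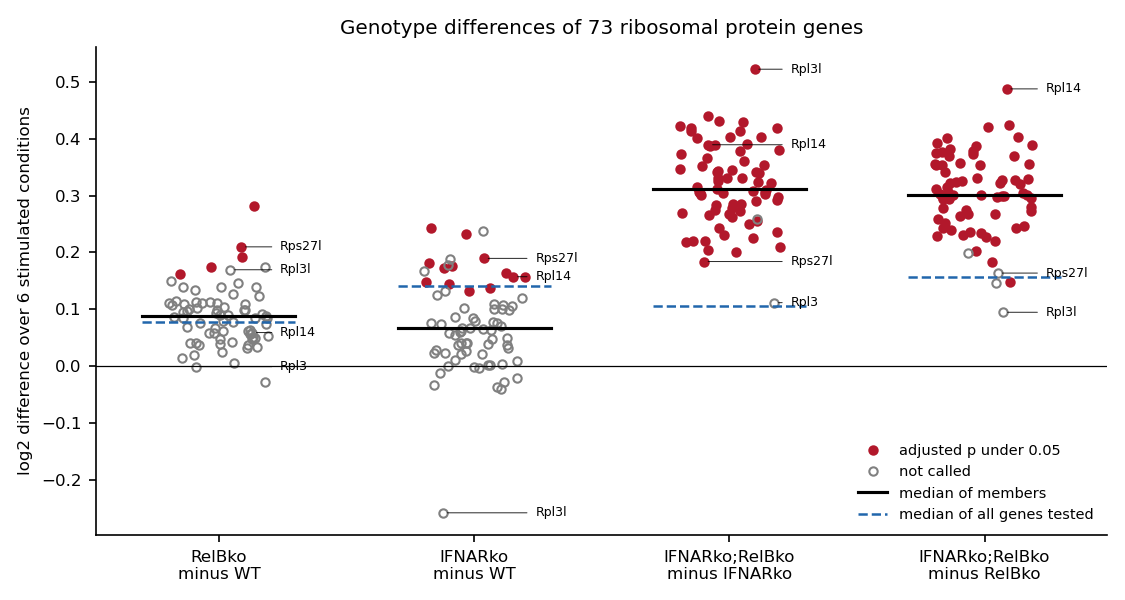
Difference in log2(CPM + 1) between genotypes (vertical axis) for the 73 members (points, spread sideways at random) over 6 stimulated conditions, in 4 comparisons; red points have an adjusted p under 0.05, open points do not, the black bar is the median of the members and the dashed line that of all genes tested. Both comparisons with the double knockout centre near 0.3, and the comparisons of single knockouts with WT centre below 0.1.

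Among the control libraries, which this fit did not use, the share of the members was also highest in the double knockout. It was 3.50% there, against 2.84% in WT, 3.04% in RelBko and 2.77% in IFNARko. The counts that follow include the 6 conditions of the fit and are not separate from it. Over the 7 matched conditions including control, 72 of 73 members were above IFNARko in 7 of 7 (all genes: 28.8%), with Rps27l as the exception, and 69 above RelBko (all genes: 35.3%) and above WT (all genes: 43.0%). The lowest double knockout library was above the highest IFNARko library in 57 members (all genes: 6.51%), above the highest WT library in 38 (all genes: 17.3%) and above the highest RelBko library in 31 (all genes: 10.4%), and in 26 it was above all 21 other libraries (all genes: 3.03%). Stromal markers were also highest in every double knockout library, and sex-linked transcripts differ from those of RelBko and IFNARko, as given above. Dendritic cell markers summed to 10337 to 11384 CPM in the double knockout, below the 12029 to 13773 CPM of RelBko and the 13102 to 14767 CPM of IFNARko. Neutrophil markers (27.9 to 49.7 CPM) lay below all RelBko libraries, and T and NK cell markers (33.3 to 47.2 CPM) below all IFNARko libraries. The part of these values in the result was not tested. The median difference of the 4 X-linked members was 0.31 from IFNARko and 0.35 from RelBko, and that of the 69 autosomal members 0.31 and 0.30.

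Averaged over the 6 stimulated conditions, the median member of the single knockouts differed little from WT. The difference was larger at CpG 8 h, where the share was 1.92% in WT, 2.37% in RelBko and 2.55% in IFNARko. Without CpG 8 h the median difference of the members from WT was 0.04 in RelBko and -0.007 in IFNARko. Leaving out any other condition gave 0.08 to 0.11 in RelBko and 0.04 to 0.10 in IFNARko. RelBko was above WT in 5 members and below in 0 (all genes: 19.5% higher, 8.97% lower), with a median of 0.09 beside 0.08 for all genes. Among them were Rps27l (0.21 ± 0.07, adjusted p 0.03), Rpl34 (0.19 ± 0.05, adjusted p 0.01), Rpl13a (0.17 ± 0.06) and Rpl37a (0.16 ± 0.06). RelBko was above WT in 7 of 7 matched conditions in 14 members (all genes: 19.1%), and IFNARko in 7 (all genes: 30.4%). With median-ratio scaling 1 of the 5 calls was left (all genes: 1403 of 12897 higher), and those of Rpl34, Rpl13a and Rps27l were lost.
IFNARko was above WT in 13 members and below in 0 (all genes: 40% higher, 13.0% lower), with Rps4x (0.24 ± 0.05, adjusted p 0.00023), Rps27l (0.19 ± 0.07) and Rpl21 (0.18 ± 0.05) among them. The median was 0.07 in the members and 0.14 in all genes. Median-ratio scaling turned the split to 0 higher and 21 lower with a median of -0.09. Of 12897 genes 2939 were then higher and 2963 lower. The direction of this comparison thus depends on the scaling, and Rpl11, called at 0.15 ± 0.06, stood at -0.0111 there. The neutrophil markers of RelBko and the T and NK cell and mast cell markers of IFNARko moved with these comparisons. Macrophage and monocyte markers did so too, with control sums of 2742 CPM in WT, 1480 in RelBko and 1120 in IFNARko. The part of these lists in the comparisons was not tested.

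Related gene lists were set beside the members by their counts and medians, with no test of the lists. Of all genes 38.8% fell and 15.3% rose at CpG 8 h. At CpG 8 h 8 of 10 ribosomal protein genes outside the name pattern fell and 0 rose (median -0.40), among them Rpl22l1 (-0.75 ± 0.10), a paralog of Rpl22, Rplp2 (-0.40 ± 0.07) and Rplp1 (-0.46 ± 0.08). Of 40 translation factors and other TOP messages 31 fell and 3 rose (median -0.28), with the initiation factors Eif4h (-0.46 ± 0.07) and Eif5a (-0.41 ± 0.07) and the RNA-binding protein Hnrnpa1 (-0.44 ± 0.07). Of 59 ribosome biogenesis genes 37 fell and 1 rose (median -0.33), with the RNA polymerase I factor Ubtf (-0.78 ± 0.08), nucleolin (Ncl, -0.61 ± 0.07) and Gar1 (-0.88 ± 0.11), a protein of pseudouridylation particles. Mitochondrial ribosomal protein genes fell in 54 of 75 cases (median -0.37) and subunits of respiratory complexes I, IV and V in 53 of 60 (median -0.41), while 7 of 31 proteasome subunits fell and 3 rose (median -0.07). Proliferation genes fell in 29 of 32 cases (median -0.88). The members' median of -0.30 thus lay between that of the proteasome and those of the mitochondrial lists.

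At Poly(I:C) 8 h 24.1% of all genes fell and 18.9% rose. There 8 of 10 ribosomal protein genes outside the pattern fell (median -0.32), and 33 of 40 translation genes fell and 1 rose (-0.24). Of 59 biogenesis genes 40 fell (-0.34), led by Ubtf (-0.62 ± 0.06). The double knockout was above IFNARko in 7 of 10 ribosomal protein genes outside the pattern (median 0.26), among them Rplp0 (0.35 ± 0.05) and Rplp1 (0.41 ± 0.06), in 19 of 40 translation genes with 3 lower (0.14) and in 29 of 59 biogenesis genes with 1 lower (0.16), led by Nop10 (0.91 ± 0.09). The largest rise among translation genes was that of the X-linked Eif2s3x (0.84 ± 0.07), which escapes X inactivation. Against IFNARko 12 of 31 proteasome subunits were lower and 1 higher (median -0.11). Of all genes 33.3% were higher and 16.5% lower in that comparison. Proliferation genes were higher in the double knockout in 13 of 32 cases against IFNARko (0.33, all genes: 33.3%). Against RelBko they were higher in 30 of 32 (1.87, all genes: 42.6%).

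**Figure D5:**
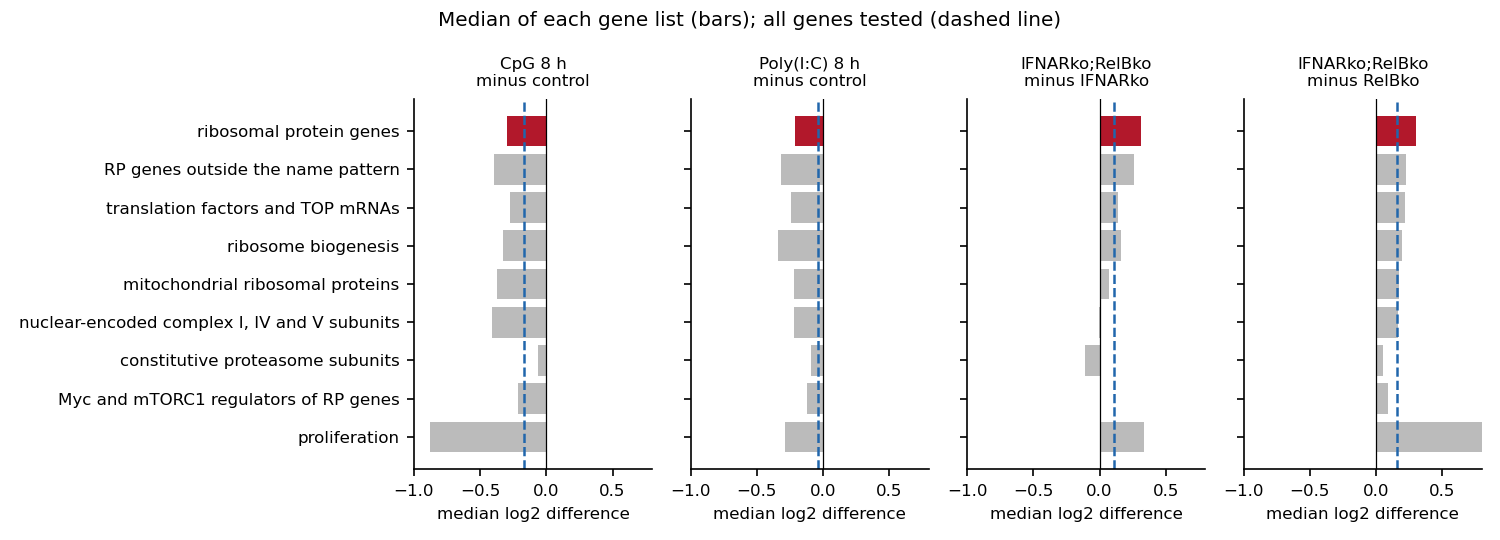
Median log2 difference (horizontal axis) of the ribosomal protein genes (red) and 8 related gene lists (grey) in 4 comparisons (panels), with the median of all genes tested as a dashed line. At CpG 8 h the ribosomal protein genes stand at -0.30 beside -0.17 for all genes and -0.88 for proliferation genes.

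Among 22 genes of the Myc and mTORC1 list, 11 fell and 3 rose at CpG 8 h (all genes: 38.8% and 15.3%). At Poly(I:C) 8 h 7 fell and 4 rose (all genes: 24.1% and 18.9%). Eif4ebp1, a repressor of cap-dependent translation that mTORC1 inactivates, fell by 0.94 ± 0.13 and 0.94 ± 0.07, and Rptor, a subunit of mTORC1, rose by 0.42 ± 0.08 and 0.54 ± 0.09. Myc stood at 37.6 CPM in WT control cells, 17.7 at CpG 8 h and 23.3 at Poly(I:C) 8 h, and at 54.3, 19.2 and 27.2 CPM in RelBko. In IFNARko it was 43.1, 34.6 and 40.4 CPM and in the double knockout 46.2, 37.7 and 32.5 CPM. The drop was thus widest in the genotypes with IFNAR. The share of the members also had its lower ratios there, and a part of Myc in this was not tested. The change of Myc from control differed between IFNAR states by 0.81 ± 0.18 after CpG (adjusted p 0.016), the only call in this list in that comparison. After Poly(I:C) it differed by 0.50 ± 0.18 (adjusted p 0.22). Myc fell by 0.77 ± 0.21 at CpG 8 h (adjusted p 0.0092) and by 0.56 ± 0.13 at Poly(I:C) 8 h (adjusted p 0.0041). Myc did not differ by a call between the double knockout and IFNARko (-0.07 ± 0.16).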

How the data were processed

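The deposited values are 2 sheets of signal per gene, per the file headers 1 column per library; the authors' values are CPM with 1 added (lowest value 1, values less 1 whole multiples of 1 step per column), with no further scaling factor. Cutadapt, edgeR and mm10 appear in the submitters' processing notes with no version. The aligner, counter and annotation are not given in the sources used here, so reads shared with processed pseudogenes may be placed differently or left out. Single members are uncertain for this reason, by an amount that these values do not give. The 186 named pseudogene entries held at most 0.00405% of a library. That value does not bound reads left out of the counts or placed under other names. From the values, 1 was subtracted, whole reads were recovered (100% within 0.001 read), and 11 symbols on several lines and unnamed entries (0.0733% to 0.116% of a library) were left out, which left 24995 genes. The control columns are identical in both sheets.

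Tests used limma 3.58.1 in R 4.3.3 (lmFit, contrasts, eBayes with trend and robust) on log2(CPM + 1) for genes of at least 1 CPM in at least 3 libraries of the fit (12608 to 12972 genes), two-sided, with Benjamini-Hochberg adjustment over all genes tested. Residual degrees of freedom were 9 for each response, 15 for the stimulus and genotype fits and 10 for the fit of all 28 libraries. Named genes were Rps3, Rps6, Rps19, Rps27a, Rps4x, Rpl5, Rpl11, Rpl10, Rpl13a, Rpl22, Rpl38 and the paralogs ending in l, the 5 of highest level per length, up to 4 called rises and 4 called falls per comparison at a mean of at least 5 CPM, the 5 least like the family, and up to 3 genes per related list by adjusted p. Results of some genes are not reported here. Rpl37a and the values of Myc beyond this rule were chosen after they were seen. The members and lists were chosen with earlier results of these data known. Fits were tested on simulated data. Alternatives were scaling, pseudocount, filter, depth, each genotype or condition left out, and voom on recovered reads. Transcript lengths and gene coordinates are from GENCODE M21 (GRCm38, the same assembly as mm10).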

Additional observations from a re-analysis of the deposited data

How the results depend on the processing

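No paired analysis was possible because each group holds 1 library and the labels carry no replicate numbers, other than the pairing by genotype or condition that every fit already holds as a term. Counts of members called stayed within 1.5 times the reported ones under pseudocount 5 and under a library total without the ribosomal protein genes. The planned edgeR test on reads was not run, and voom on recovered reads, chosen after seeing the data, took its place. With median-ratio scaling the calls were 5 higher and 4 lower at CpG 3 h, 23 lower at CpG 8 h, 27 higher and 2 lower for CpG against Poly(I:C) at 3 h, 4 higher and 1 lower at 8 h, 22 lower at Poly(I:C) 3 h, 0 higher and 21 lower for IFNARko against WT, 32 higher for the double knockout against RelBko and 1 higher for RelBko against WT. Without libraries under 5000000 reads 2 members were lower at CpG 1 h and 32 at CpG 3 h (of 12511 genes, 49 and 4684). For CpG against Poly(I:C) at 8 h 32 were then lower (of 12824 genes, 3142). IFNARko was then above WT in 6 members and RelBko above WT in 10 (of 12824 genes, 4866 and 2852). Voom gave 9 lower for CpG against Poly(I:C) at 8 h (all genes: 3965 of 12897). No filter gave 2 higher for RelBko against WT (all genes: 2120 of 23028). CpG libraries alone gave 2 (IFNARko against WT), 44 (double knockout against IFNARko) and 1 (RelBko against WT) higher. Of 12392 genes 2759, 1926 and 589 were higher in the same order. Poly(I:C) libraries alone gave 1 for IFNARko against WT and 0 for RelBko against WT (of 12552 genes, 3707 and 1230). Causes of these differences between settings were not tested. Counts of all genes under median-ratio scaling are given with the results above.

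Leaving out each genotype in turn gave 0 to 2 falls at CpG 1 h and 5 to 21 at CpG 3 h (all genes: 1 to 33 and 2680 to 3578). At CpG 8 h it gave 41 to 64 falls and 0 to 1 rises (all genes: 3646 to 4720 and 1517 to 1824). Poly(I:C) gave 0 to 9 falls at 3 h (all genes: 386 to 1058). At Poly(I:C) 8 h 26 to 62 fell and 0 to 1 rose (all genes: 1866 to 3027 and 1576 to 2103). For CpG against Poly(I:C) 6 to 13 were lower and 0 to 1 higher at 3 h (all genes: 2728 to 3538 and 756 to 976). At 8 h 2 to 5 were lower (all genes: 1619 to 2604). These fits tested 12359 to 12779 genes. The lowest counts of both responses at 3 and 8 h came without RelBko. Leaving out each condition gave 4 to 20 members higher for IFNARko against WT, with 4 without Poly(I:C) 8 h, 69 to 72 for the double knockout against IFNARko, 67 to 71 against RelBko, and 2 to 3 for RelBko against WT. Of 12783 to 12822 genes, 4470 to 5043, 3631 to 4009, 4907 to 5286 and 1795 to 2489 were then higher in the same order. The share ran from 2.17% to 3.998% with 6 genes outside the name pattern added, and from 1.97% to 3.59% without mitochondrially encoded genes in the denominator. Of 1040 alternative values of 88 named gene results, 918 kept direction and call, 119 lost the call, 29 of them with median-ratio scaling and 23 without RelBko, and 3 changed direction, all with median-ratio scaling: Rpl10 (0.0275) and Rps27a (0.0024) for CpG against Poly(I:C) at 3 h, and Rpl11 (-0.0111) for IFNARko against WT. Depth limits Rpl3l most, with 1 read in the shallowest library.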
